A study of Mus musculus with 2 samples.

Results

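Genes of the tight junction, 10 in all, were followed in single cells of mouse colon, namely the claudins Cldn2, Cldn3, Cldn4, Cldn7, Cldn14, Cldn15 and Cldn23, occludin (Ocln), junctional adhesion molecule A (F11r) and the scaffold protein ZO-1 (Tjp1). The 10 genes are a set of known junction components matched by symbol in both feature tables, which list 31053 genes each. The study compared the colon of C57BL/6 wild-type mice given 10 mg/kg tetrahydrocannabinol (THC), the psychoactive compound of cannabis, with the colon of C57BL/6 wild-type mice given vehicle. Both libraries were made the same way: an EDTA step released epithelium, an enzyme mix of collagenase D, DNAse and Dispase freed the remaining cells, a 40/80 Percoll gradient enriched those of the lamina propria, and libraries were built with the 10x Chromium 5' kit. Each group is 1 library. No source used here gives the number of mice behind it, their sex and age, the dosing schedule or the segment of colon taken.

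A tight junction closes the space between neighbouring epithelial cells near their apical side. Claudins are the membrane proteins that form its strands, and their mixture sets what can pass: claudin-2 and claudin-15 form pores for cations, and claudin-2 also for water, while claudin-3, claudin-4 and claudin-7 are mostly counted among the sealing types. Occludin and junctional adhesion molecule A sit in or beside the strands, and ZO-1 ties them to the actin cytoskeleton from the cytoplasmic side. In the gut, claudin-2 and claudin-15 are known from the crypts and claudin-4 from the surface epithelium.

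Barcodes were kept with at least 1000 unique molecular identifiers (UMIs), at least 200 genes and under 15% mitochondrial UMIs. This left 436 THC and 703 vehicle cells, with medians of 9072.5 and 7539 UMIs, and the libraries shared 0 barcode sequences among them. The members and the other junction genes were kept out of the genes used for clustering. From canonical markers, 161 THC and 250 vehicle cells were epithelial-like: 54 and 85 goblet-like, 63 and 73 colonocyte-like, 39 and 88 undifferentiated crypt epithelial-like, and 5 and 4 enteroendocrine-like. No tuft-like cluster was found. The goblet-like cells formed a Muc2-led cluster and a Zg16-led cluster, the colonocyte-like cells a Fabp6-led cluster with Car1, Aqp8 and Krt20 and a Tgm3-led cluster with Krt36 and Hoxb13, genes of the distal colon, and the undifferentiated-like cells a Gm26917-led cluster with Lgr5 and Ascl2 and a cycling Mki67-led cluster. Gm26917 is a non-coding model that collects ribosomal RNA reads, and no undifferentiated marker is among the leading 10 genes of the cluster it leads.

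Levels are given as CPM, the summed UMIs of a gene per 1000000 UMIs of all genes in the same cells. A 5' kit counts a transcript once whatever its length, so CPM values of different genes were set side by side without scaling by length. Intervals are exact 95% intervals and cover counting error only. With 1 library a group there is no replicate spread and no test between THC and vehicle, so a library effect and a THC effect cannot be told apart, and a log2 ratio beyond 1.5-fold is called only as a description of these libraries. Where members past 1.5-fold in both libraries are counted, shares of all genes are given for each library alone. The share of all genes past it in both was not computed.

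**Figure D1:**
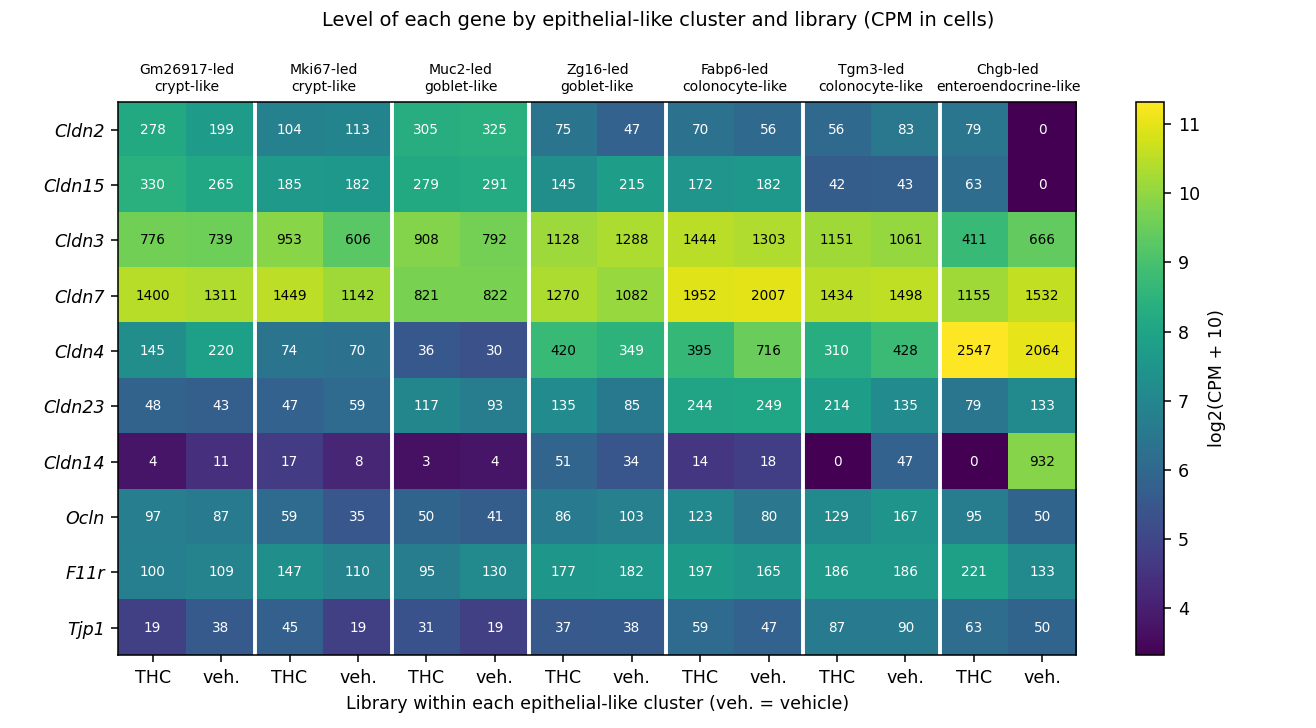
Level of each of the 10 genes (rows) in the 7 epithelial-like clusters, THC left and vehicle (veh.) right in each pair; crypt-like stands for undifferentiated crypt epithelial-like. Numbers are CPM and colours log2(CPM + 10). Cldn2 and Cldn15 are highest in the Gm26917-led and Muc2-led clusters. Cldn4 is high in the Zg16-led, colonocyte-like and enteroendocrine-like clusters, and Cldn23 is highest in the colonocyte-like ones. Cldn3 and Cldn7 are high in every cluster.

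The promoters of 3 members are shown: Cldn2 and Cldn15, high in Gm26917-led and Muc2-led cells, and Cldn4, high in Zg16-led and colonocyte-like cells. The sequences are the 250 bases before the RefSeq start in GRCm38.p6, 5' to 3' on the strand of the gene, at chrX:139800558-139800807 (plus strand), chr5:136967619-136967868 (plus strand) and chr5:134946935-134947184 (minus strand). Capitals mark matches on either strand to the TATA box (letters TATAAA), the GC box (letters GGGCGG) and a core of sites of CDX factors (letters TTTATG). The cores of GATA factor sites (letters AGATAA) and of TCF sites (letters CTTTGA) were also searched and matched in none of the 3 windows.
Cldn2: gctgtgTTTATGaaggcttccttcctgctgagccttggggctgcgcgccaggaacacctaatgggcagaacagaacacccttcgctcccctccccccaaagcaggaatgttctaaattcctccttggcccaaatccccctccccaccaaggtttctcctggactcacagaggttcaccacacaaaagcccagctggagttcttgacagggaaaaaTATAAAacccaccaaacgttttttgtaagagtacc
Cldn15: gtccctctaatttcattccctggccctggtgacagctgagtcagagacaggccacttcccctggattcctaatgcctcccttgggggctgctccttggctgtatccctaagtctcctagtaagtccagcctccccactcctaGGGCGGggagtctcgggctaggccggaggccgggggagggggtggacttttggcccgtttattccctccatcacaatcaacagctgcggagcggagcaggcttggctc
Cldn4: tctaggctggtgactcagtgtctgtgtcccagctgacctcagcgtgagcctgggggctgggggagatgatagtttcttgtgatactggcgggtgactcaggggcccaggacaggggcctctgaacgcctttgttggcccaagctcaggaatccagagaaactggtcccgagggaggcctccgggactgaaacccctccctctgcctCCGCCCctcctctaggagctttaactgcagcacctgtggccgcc
The Cldn2 window holds a TATA box 35 bases before the start and TTTATG 244 bases before it, and no GC box. The Cldn15 and Cldn4 windows hold 1 GC box each, 108 and 44 bases before the start. Of 32817 mouse promoters of this length, 12.4% hold the TATA box letters, 32.7% those of the GC box, 10.8% those of CDX, 9.99% those of GATA and 13.8% those of TCF. No motif overlaps another in these windows, and a match is a description of the letters only. Of the members, 9 have a promoter in the RefSeq table: 7 have a GC box before at least 1 start, and Cldn2 alone has a TATA box. No Cldn23 entry was matched.

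The pore-forming claudins were highest in the Muc2-led goblet-like and Gm26917-led clusters in both libraries. Cldn2 was highest in the Muc2-led goblet-like cluster, at 305 CPM in THC cells (109 UMIs) and 325 CPM in vehicle cells (175 UMIs). It had 278 and 199 CPM in the Gm26917-led cluster, and 104 and 113 CPM in the cycling Mki67-led cluster. In the Zg16-led goblet-like cluster Cldn2 had 74.7 CPM in THC and 47.0 CPM in vehicle cells, and in the 2 colonocyte-like clusters it lay between 56.1 and 82.6 CPM. The counting intervals of the Muc2-led and Gm26917-led clusters overlapped in the THC library (250 to 367 against 219 to 349 CPM) but not in the vehicle library (278 to 377 against 163 to 241 CPM), and those of the Zg16-led, Fabp6-led and Tgm3-led clusters overlapped in both. The 2 goblet-like clusters differed more in Cldn2 than the goblet-like and undifferentiated-like classes did, whose log2 ratio was 0.06 in THC and 0.17 in vehicle cells. In the Zg16-led over the Muc2-led cluster the log2 ratio was -2.03 (-2.64 to -1.45) in THC and -2.79 (-3.44 to -2.19) in vehicle cells.

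Cldn15 had a similar but flatter order. Its highest levels were 330 CPM in the Gm26917-led THC cells and 291 CPM in the Muc2-led vehicle cells, and the intervals of these 2 clusters overlapped in both libraries. Unlike Cldn2, Cldn15 separated the 2 colonocyte-like clusters: it had 172 CPM in THC and 182 CPM in vehicle Fabp6-led cells, against 41.6 and 43.2 CPM in Tgm3-led cells. The log2 ratio of the Fabp6-led over the Tgm3-led cluster was 2.05 (1.39 to 2.76) in THC and 2.08 (1.42 to 2.79) in vehicle cells. It was the only member past 1.5-fold in the same direction in both libraries in that comparison, in which 28.3% of all genes with at least 50 UMIs passed in THC cells and 39.5% in vehicle cells.

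Among the sealing type, Cldn3 and Cldn7 were the most abundant members in every epithelial-like cluster but the enteroendocrine-like one. Cldn7 lay between 821 CPM in the Muc2-led cluster (THC; 822 CPM in vehicle) and 1952 CPM in the Fabp6-led cluster (2007 CPM in vehicle). Cldn3 lay between 411 CPM in THC and 606 CPM in vehicle cells at the lowest (enteroendocrine-like and Mki67-led cells) and 1444 and 1303 CPM in the Fabp6-led cluster at the highest. After thinning every cell to 2000 UMIs, 90.3% of THC and 81.3% of vehicle epithelial-like cells held a Cldn7 UMI, and 82.5% and 74.6% held a Cldn3 UMI. Before thinning the shares were 98.1% and 92.0% for Cldn7, and 98.1% and 92.4% for Cldn3, at median depths of 17314 and 12983 UMIs.

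Apart from the rare Cldn14, Cldn4 had the widest range of the members among the clusters with at least 10 cells a library. It was lowest in the Muc2-led goblet-like cluster, at 36.3 CPM in THC (13 UMIs) and 29.7 CPM in vehicle cells (16 UMIs), and far higher in the Zg16-led goblet-like cluster, at 420 and 349 CPM. The log2 ratio of the Zg16-led over the Muc2-led cluster was 3.53 (2.72 to 4.47) in THC and 3.55 (2.82 to 4.39) in vehicle cells, opposite in sign to that of Cldn2. The Fabp6-led cluster had 395 CPM in THC and 716 CPM in vehicle cells, the Tgm3-led cluster 310 and 428 CPM, the Gm26917-led cluster 145 and 220 CPM, and the Mki67-led cluster 73.5 and 69.7 CPM. Over the 2 goblet-like clusters, 3 members were past 1.5-fold higher in the Zg16-led cluster in both libraries (Cldn4, Cldn14 and Ocln) and 1 was lower (Cldn2). With each library taken alone, 17.4% and 17.2% of all genes were past it higher and lower in THC, and 18.2% and 13.3% in vehicle cells. Cldn14 rested there on 22 against 1 UMIs in THC and 19 against 2 in vehicle cells, under the 50-UMI minimum of that background, and the Ocln interval in THC (-0.07 to 1.68) held 0.

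The enteroendocrine-like cells, the hormone-making cells of the gut, had the highest Cldn4 of any epithelial-like cluster, 2547 CPM in 5 THC cells and 2064 CPM in 4 vehicle cells. One cell held 85.1% of these UMIs in THC and 69.4% in vehicle. Every one of the 9 cells nevertheless held Cldn4, from 176 to 12852 CPM in THC cells and from 755 to 4271 CPM in vehicle cells. Cldn2 was at 79.1 CPM in the THC cells, all 5 UMIs in 1 cell, and had no UMI in the 4 vehicle cells, where 3 UMIs would have been 49.9 CPM.

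**Figure D2:**
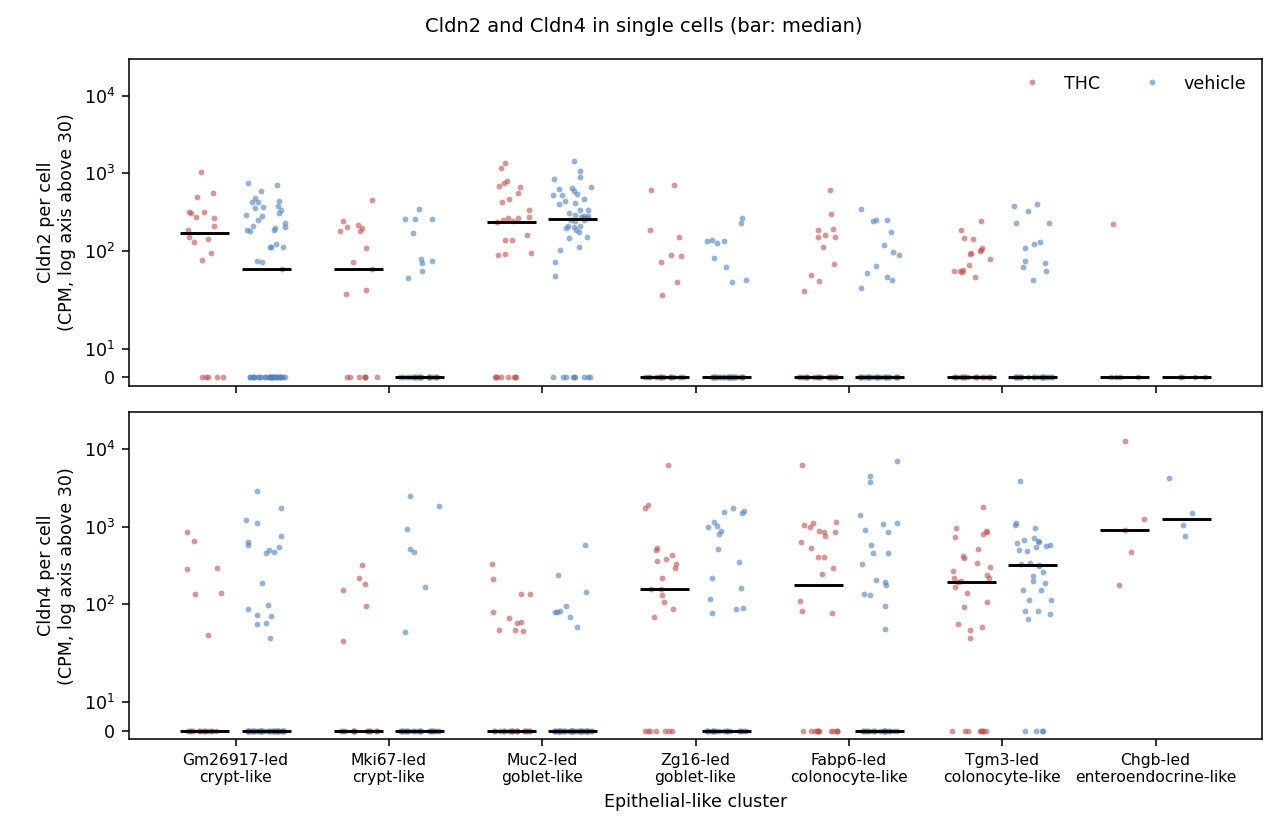
CPM of Cldn2 (top) and Cldn4 (bottom) in each epithelial-like cell, by cluster, THC cells left (red) and vehicle cells right (blue), with the median as a bar; the axis is linear below 30 CPM and a log axis above. Median Cldn2 was 236 and 258 CPM in Muc2-led THC and vehicle cells and 0 in both colonocyte-like clusters, while all 9 enteroendocrine-like cells held Cldn4.

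Cldn4 was also the most unevenly spread of the abundant members. The richest 10% of epithelial-like cells for the gene (17 THC and 25 vehicle cells) held 63.6% of the Cldn4 UMIs in THC and 74.1% in vehicle cells. For Cldn7 the figures were 27.5% and 33.5%, and for UMIs of all genes 21.2% and 21.6%. Cldn2 lay between, at 47.2% and 48.4%. The median cell held 155 CPM of Cldn4 in Zg16-led THC cells and 0 in vehicle cells, 178 and 0 CPM in Fabp6-led cells, and 193 and 315 CPM in Tgm3-led cells, and 19 of the 39 Fabp6-led vehicle cells held any Cldn4 UMI. The richest cell held 33 of the 253 Cldn4 UMIs of Fabp6-led THC cells and 167 of the 472 UMIs of vehicle cells. After thinning, 25.3% of THC and 27.2% of vehicle epithelial-like cells held Cldn4, 20.8% and 19.2% held Cldn2, 26.6% and 24.1% Cldn15, 22.1% and 18.3% Cldn23, and 2.60% and 1.79% Cldn14. Thinning left 154 THC and 224 vehicle cells, with 7 and 26 shallower cells left out.

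Cldn23, a less studied claudin of the differentiated epithelium, followed the colonocyte-like cells. It had 244 CPM in THC and 249 CPM in vehicle Fabp6-led cells, 214 and 135 CPM in Tgm3-led cells, and 48.3 and 43.3 CPM in Gm26917-led cells. Cldn14, a claudin best known from the inner ear and the kidney, was rare, with 40 UMIs in THC and 123 UMIs in vehicle epithelial-like cells. In vehicle cells 56 of these UMIs came from 1 enteroendocrine-like cell and 23 from 1 Tgm3-led cell, while the other 3 enteroendocrine-like cells held none.

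Among the clusters with at least 10 cells a library, the members that are not claudins had a narrower range than Cldn2 or Cldn4. F11r had its lowest level in the Muc2-led cluster in THC cells (34 UMIs) and in the Gm26917-led cluster in vehicle cells (58 UMIs), and lay between 165 and 197 CPM in the colonocyte-like and Zg16-led clusters of both libraries. Ocln was highest in the Tgm3-led cluster, at 129 CPM in THC and 167 CPM in vehicle cells, against 50.3 and 40.8 CPM in the Muc2-led cluster. Tjp1 was also highest in the Tgm3-led cluster, at 86.9 and 90.1 CPM, with 48 UMIs in each library. After thinning, 24.0% of THC and 16.1% of vehicle epithelial-like cells held Ocln, 22.7% and 28.6% held F11r, and 9.09% and 7.14% held Tjp1. In the Gm26917-led cluster Tjp1 had 18.6 and 37.6 CPM, from 5 and 20 UMIs.

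Set against the undifferentiated-like class, the colonocyte-like class had 18.5% of all genes with at least 50 UMIs past 1.5-fold higher in THC. In vehicle cells 15.9% were, each library taken alone. Past it higher in both libraries were 4 members, a stricter count whose share over all genes was not computed. These were Cldn23, at a log2 ratio of 2.27 (1.74 to 2.83) in THC and 1.99 (1.53 to 2.49) in vehicle cells, Cldn4 at 1.81 and 1.89, Tjp1 at 1.05 and 1.15, and Ocln at 0.77 and 0.87. Cldn3 and F11r were just inside or past the threshold, at 0.57 and 0.80 for Cldn3 and 0.58 and 0.67 for F11r. Lower in both libraries were Cldn2, at -1.43 (-1.87 to -1.01) in THC and -1.27 (-1.68 to -0.87) in vehicle cells, and Cldn15 at -1.12 and -0.95, where 18.9% and 20.8% of all genes were past 1.5-fold lower. The median log2 ratio of the 10 members was 0.57 in THC and 0.84 in vehicle cells, against -0.05 and -0.10 over all genes tested. With TMM scaling, which adds 0.20 to every log2 ratio in THC and 0.23 in vehicle cells, 6 members were past 1.5-fold higher and 2 lower. With classes assigned from the marker UMIs of each cell 1 member was lower, and with the mean of CPM per cell 2 members were higher.

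Over the goblet-like class, the colonocyte-like class was past 1.5-fold higher in both libraries for Cldn7, Cldn23, Tjp1 and Ocln and lower for Cldn2 and Cldn15. With each library taken alone, 21.9% of all genes were past it higher and 17.7% lower in THC, and 20.8% and 21.3% in vehicle cells. The median of all genes there was 0.11 in THC and 0.03 in vehicle cells. The goblet-like over the undifferentiated-like class had Cldn23 higher, at 1.41 in THC and 0.84 in vehicle cells, and Cldn14, from 23 against 8 UMIs in THC and 21 against 9 in vehicle cells. All genes tested in that comparison had a median log2 ratio of -0.17 in THC and -0.13 in vehicle cells, and 20.9% and 21.2% were past 1.5-fold higher. Within the undifferentiated-like cells, 3 members were past 1.5-fold lower in the Mki67-led than in the Gm26917-led cluster in both libraries (Cldn2, Cldn4 and Ocln). With each library taken alone, 7.30% of all genes were past it lower in THC and 8.90% in vehicle cells. Depth differed in that comparison, in opposite directions in the THC and vehicle libraries, and its part was not tested. The Mki67-led cells had a median of 26699 UMIs in THC and 5571 UMIs in vehicle, against 14234.5 and 7944 UMIs in the Gm26917-led cells.

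The make-up of the claudin UMIs put these levels on 1 scale. Of the UMIs of the 7 claudins, Cldn7 and Cldn3 together made up most in every cluster but the enteroendocrine-like one. Cldn2 was 12.3% of claudin UMIs in Muc2-led THC cells and 13.8% in vehicle cells, against 1.64% and 1.24% in Fabp6-led cells. Cldn4 was 1.47% and 1.26% in Muc2-led cells, 9.21% and 15.8% in Fabp6-led cells, and 58.8% and 38.8% in enteroendocrine-like cells. The summed claudin level was 2470 CPM in Muc2-led THC cells.

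**Figure D3:**
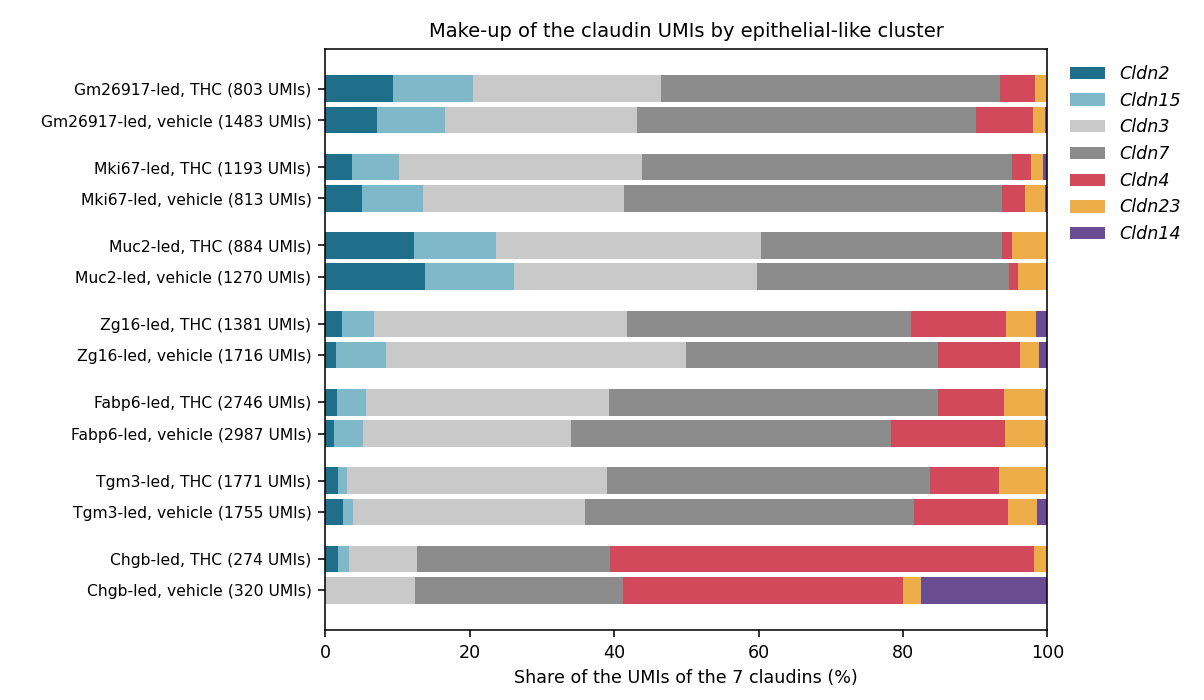
Share of each claudin in the summed UMIs of the 7 claudins (percent, stacked to 100), by epithelial-like cluster, THC above vehicle in each pair, with the number of claudin UMIs in brackets. The Cldn2 and Cldn15 parts are widest in the Muc2-led and Gm26917-led clusters and the Cldn4 part in the Chgb-led (enteroendocrine-like) cluster.

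Most members differed by less than 1.5-fold between THC and vehicle cells. In the pooled epithelial-like cells 1 of 10 members was past 1.5-fold, where 6.67% of all 8691 genes with at least 50 UMIs were past it in either direction. That member was Cldn14, at 14.6 CPM in THC and 37.9 CPM in vehicle cells, a log2 ratio of -1.37 (-1.92 to -0.85). It rested on the enteroendocrine-like cells: without them the log2 ratio was -0.49, and no member was past 1.5-fold. The most abundant members differed little, with Cldn7 at 1442 CPM in THC and 1347 CPM in vehicle cells (0.10; 0.04 to 0.16) and Cldn3 at 1099.6 and 992 CPM (0.15; 0.08 to 0.22). Cldn4 had 310 CPM in THC and 362 CPM in vehicle cells (-0.22, interval -0.35 to -0.09). The pore-forming Cldn2 had 125 and 132 CPM (-0.08; -0.29 to 0.12), and Cldn15 171 and 193 CPM (-0.18; -0.36 to -0.01). Cldn23 had 151 CPM in THC and 119 CPM in vehicle cells (0.34; 0.14 to 0.55). Tjp1 (51.6 and 43.1 CPM), Ocln (95.9 and 87.1 CPM) and F11r (162 and 149.6 CPM) had intervals that held 0. The median over the 10 members was 0.11, against 0.00 over all genes tested.

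**Figure D4:**
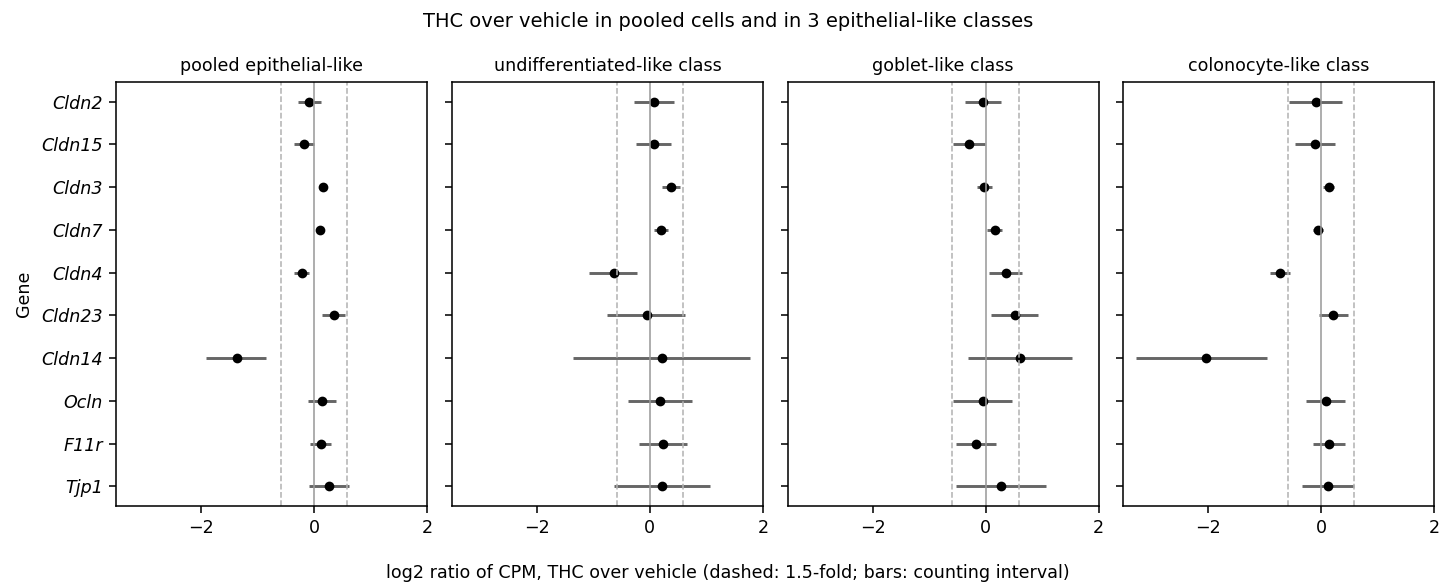
log2 ratio of CPM, THC over vehicle, of the 10 genes (rows) in the pooled epithelial-like cells and in 3 classes; points are ratios, bars 95% counting intervals, dashed lines 1.5-fold. Cldn4 lies left of 0 in colonocyte-like cells (-0.72) and undifferentiated-like cells (-0.64) and right of 0 in goblet-like cells (0.36), and most other points lie between the dashed lines.

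Apart from the rare Cldn14, Cldn4 was the member whose ratio differed most among the goblet-like, colonocyte-like and undifferentiated-like classes. In colonocyte-like cells it had 356 CPM in THC (424 UMIs) and 587 CPM in vehicle (700 UMIs), a log2 ratio of -0.72 (-0.90 to -0.55). Together with Cldn14 (9 UMIs in 1 THC cell against 37 UMIs in 7 vehicle cells, under the minimum of 50) it made 2 of 10 members past 1.5-fold, where 8.79% of all genes were. In undifferentiated-like cells Cldn4 had 101 CPM in THC and 158 CPM in vehicle, at -0.64 (-1.08 to -0.22), the 1 member past 1.5-fold, where 12.1% of all genes were. In goblet-like cells it had 245 and 191 CPM, at 0.36 (0.07 to 0.65), and the 1 member past 1.5-fold was Cldn14 at 29.3 and 19.2 CPM, where 9.25% of all genes with at least 50 UMIs were. Its 23 and 21 UMIs fall short of that minimum, and its interval (-0.31 to 1.53) held 0. The Cldn4 ratios moved with the cells and classes taken. Single Fabp6-led vehicle cells held 167, 96 and 88 of the 700 UMIs of colonocyte-like vehicle cells, and the ratio without all of them was not computed. The median cell held more Cldn4 in THC than in vehicle in the Fabp6-led cluster, and less in the Tgm3-led cluster. In colonocyte-like cells the ratio was -0.44 when each library lost its richest cell. As the mean of CPM per cell it was -0.35, and with classes from marker UMIs it was -0.45, all inside 1.5-fold, and at a coarser clustering it was -1.65. In goblet-like cells it was 0.06 without the richest cell, -0.29 with cells under 10% mitochondrial UMIs and 1.21 with classes from marker UMIs. In undifferentiated-like cells it was -1.23 as the mean of CPM per cell, 0.72 at the coarser clustering and -0.33 without the richest cell, inside 1.5-fold. One Gm26917-led vehicle cell held 47 of the 143 Cldn4 UMIs of the vehicle class. By cluster the ratio was -0.60 (-1.17 to -0.07) in Gm26917-led and 0.08 (-0.72 to 0.89) in Mki67-led cells.

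Some colonocyte markers, chosen after their values were seen, moved with Cldn4 in the Fabp6-led cluster and others did not, and their part in the difference was not tested. Krt20, a keratin of the surface epithelium, had 542 CPM in THC and 1112 CPM in vehicle cells there, and Aqp8, a water channel of the surface, 222 and 1110 CPM. Car1, a carbonic anhydrase of colonocytes, had 10407 and 20918 CPM, while Fabp6, a bile acid-binding protein, had 2181 and 367 CPM. Car4, another carbonic anhydrase of colonocytes, had 408 CPM in THC and 314 CPM in vehicle cells, Aqp4 84.4 and 36.4 CPM, and Tgm3 71.9 and 3.03 CPM. Among colonocyte-like cells with a Krt20 UMI (20 THC and 19 vehicle cells) Cldn4 had 378 and 1612 CPM, a log2 ratio of -2.09 (-2.38 to -1.81). Among those without one (43 and 54 cells) it had 346 and 266 CPM, at 0.38 (0.13 to 0.63). Leaving out the richest cell of each library, the Krt20-holding cells had 290 CPM in THC and 1121 CPM in vehicle. The 1612 CPM (459 UMIs) rested largely on Fabp6-led vehicle cells with 167, 96 and 88 Cldn4 UMIs. The counting interval takes such UMIs as independent, and the ratio without all of these cells was not computed.

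Cldn3 and Cldn7 were somewhat higher in undifferentiated-like THC cells, at 884 against 684 CPM for Cldn3 (0.37; 0.21 to 0.53) and 1429.9 against 1241 CPM for Cldn7 (0.20; 0.08 to 0.33), below 1.5-fold. By cluster, the Cldn3 ratio was 0.65 (0.42 to 0.90) in Mki67-led cells, where depth also differed, and 0.07 (-0.18 to 0.32) in Gm26917-led cells. Cldn7 was at 0.34 (0.16 to 0.53) and 0.09 (-0.09 to 0.28) in the same clusters. Cldn2 in the same class had 172 CPM in THC and 164 CPM in vehicle cells (0.07; -0.29 to 0.43). Gm26917 had 1233 and 7043 CPM in the Gm26917-led cluster and 1667 and 7353 CPM in the Mki67-led cluster, and the part of this in the ratios of the class was not tested.

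Of 98 genes listed as other claudins, other tight junction membrane and plaque proteins, adherens junction, desmosome, regulators and posterior colon genes, 96 are in the feature tables and 66 had at least 50 UMIs in the pooled epithelial-like cells. Of these, 2 were past 1.5-fold higher in THC and 4 lower, where 2.69% and 3.98% of all genes were, and their median log2 ratio was 0.06. The highest were Nectin3, an adherens junction receptor, with 50.9 CPM in THC and 33.2 CPM in vehicle cells (0.61), Arhgef18, of the plaque and polarity list, with 13.9 and 9.23 CPM (0.59), and Pkp3, a desmosomal plakophilin, with 45.7 and 31.4 CPM (0.54). The lowest were Insl5, a hormone of distal enteroendocrine cells, with 1 UMI in THC and 535 UMIs in vehicle cells (-8.81; -14.12 to -6.33), Hoxd13, a gene of posterior position, with 5.49 and 10.8 CPM (-0.97), and Amotl2, a polarity protein, with 10.2 and 17.5 CPM (-0.78). Insl5 and Hoxd13 are on the posterior colon list and are not junction genes. Insl5 is among the leading 10 genes of the enteroendocrine-like cluster, which holds only 5 THC and 4 vehicle cells. Its counting interval takes UMIs as independent, and the spread of its UMIs over cells was not computed. The 3 with the most UMIs were Epcam, Klf5 and Elf3, at 1789 and 1645 CPM, 872 and 888 CPM, and 789.7 and 760.2 CPM. None of the 7 desmosomal genes, the 7 tested membrane proteins or the 17 tested regulators and proteases was past 1.5-fold. Of the 20 tested plaque and polarity genes, 1 was past it higher and 2 lower. Of the 10 tested adherens junction genes 1 was past it higher, and of the 3 tested posterior colon genes 2 were lower.

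Other claudins were scarce in the epithelium. Cldn8, a sealing claudin of the distal colon and kidney, had 30.4 CPM in THC and 27.4 CPM in vehicle epithelial-like cells, with 65.2 and 45.1 CPM in the Tgm3-led cluster and 48.3 and 43.3 CPM in the Gm26917-led cluster, whose intervals overlapped. Cldn12 had 22.7 CPM in THC and 16.3 CPM in vehicle epithelial-like cells. Outside the epithelium, Cldn5, the claudin of endothelium, reached 1125 CPM in THC and 739 CPM in vehicle lymphatic endothelial-like cells, and Cldn10 had 216 and 331 CPM in mesothelial-like cells, from 16 and 11 UMIs.

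Across 12 points, 6 epithelial-like clusters in 2 libraries, some pairs of members varied in opposite directions and others together. Pearson's r of log2(CPM + 10) was -0.78 between Cldn4 and Cldn2, -0.85 between F11r and Cldn2 and -0.84 between Tjp1 and Cldn15, and 0.84 between F11r and Cldn3 and 0.79 between Ocln and Cldn4. These were the strongest pairs. Others were weak, such as Cldn23 and Cldn14 at 0.10 and Cldn15 and Cldn14 at -0.24, and no grouping of the members was computed. Among 6551 genes, the one most like Cldn2 was Aqp1, a water channel (r 0.90), and those most like Tjp1 were Usp53, Rapgefl1 and Cgn, the plaque protein cingulin (r 0.94 each). Cldn23 was most like Cdhr5, a microvillar cadherin (0.95), Cldn4 like Clcn5 (0.91), Mal2 (0.90) and Plac8 (0.89), Cldn15 like Ide (0.94), Cldn7 like Cox5a (0.97), Cldn3 like Il13ra1 (0.89), Cldn14 like Esrp2 (0.79), Ocln like Atp1b1 (0.93) and F11r like Cmtm4 (0.93). Points of 1 library share that library, and points of 1 cluster share the genes that formed it.

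Outside the epithelium, 3 members had levels of their own. Cldn15 reached 891 CPM in mesothelial-like cells of the THC library (66 UMIs, 5 cells) and 693 CPM in those of the vehicle library (23 UMIs, 2 cells), above any epithelial-like cluster, and every one of these cells held it. An unnamed Ces1d-led cluster with fibroblast markers had 123 and 124 CPM, from 6 and 5 UMIs. In fibroblast-like cells Cldn15 had 6.29 and 9.19 CPM, and the 48 THC and 71 vehicle smooth muscle-like cells held no Cldn15 UMI.

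F11r, also known from endothelium and leukocytes, had 336 CPM in THC and 397 CPM in vehicle lymphatic endothelial-like cells, 355 and 325 CPM in blood endothelial-like cells, and 459 and 241 CPM in mesothelial-like cells. It had 83.3 and 32.4 CPM in macrophage-like cells. Tjp1 had 203 CPM in THC and 418 CPM in vehicle blood endothelial-like cells, from 4 and 18 UMIs, with overlapping intervals. In fibroblast-like cells Tjp1 had 39.3 and 47.8 CPM, close to the 51.6 and 43.1 CPM of the pooled epithelial-like cells.

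**Figure D5:**
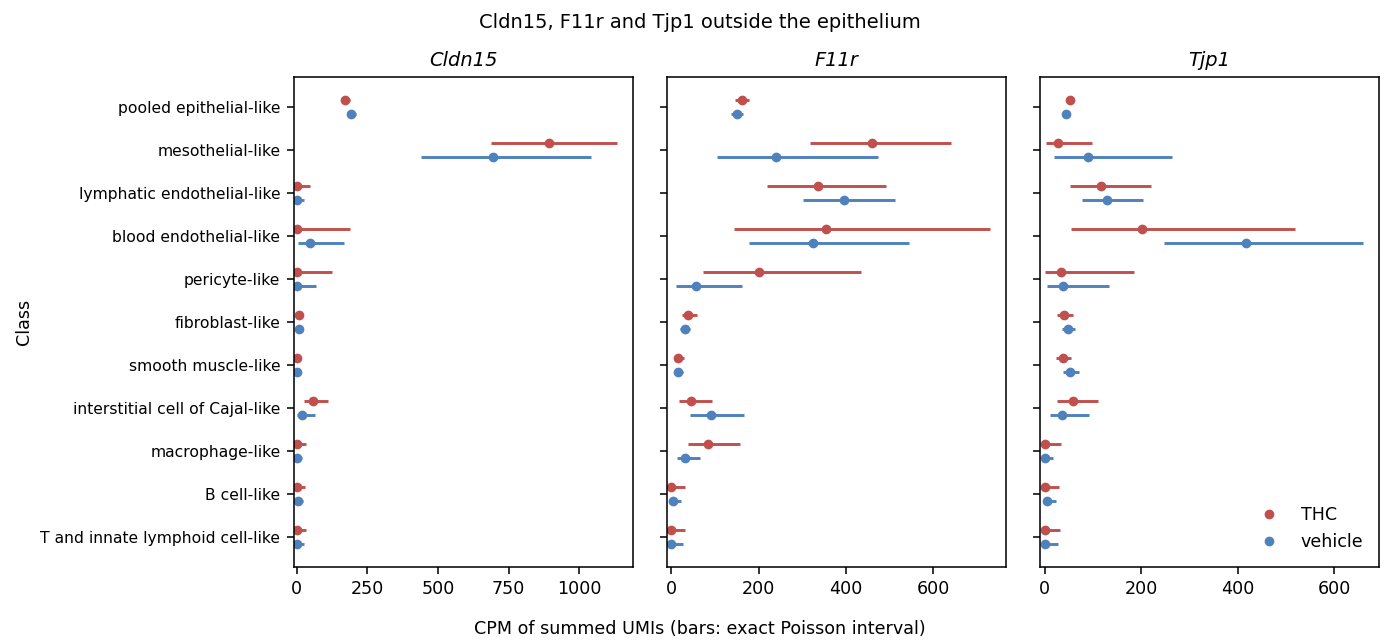
CPM of Cldn15, F11r and Tjp1 in the pooled epithelial-like cells (top row) and 10 classes outside the epithelium, THC (red) above vehicle (blue) in each row, with exact Poisson 95% intervals. Cldn15 stands out in mesothelial-like cells (891 and 693 CPM) and F11r in mesothelial-like and endothelial-like cells, and all 3 genes are near 0 in B-like and T-like cells.

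Lymphocytes form no tight junctions, and UMIs of the claudins were rare in them. In 70 THC and 120 vehicle lymphocytes (B-like, T-like and plasma-like; medians 3379.5 and 3330 UMIs), Cldn7 UMIs were found in 1.43% of THC and 3.33% of vehicle cells, at 3.02 and 7.12 CPM, and Cldn2 and Cldn14 in none, which allows a share of cells with a UMI of up to 4.29% and 2.50% but sets no limit on cells that express the gene. The THC matrix also holds uncalled barcodes. In 105814 of them with 1 to 99 UMIs, Cldn7 had 887 CPM, Cldn3 520 CPM, Cldn4 165 CPM and Cldn2 57.5 CPM. The 3 members with the highest level there, Cldn7, Cldn3 and Cldn4, were also the 3 highest in the pooled THC epithelial-like cells.

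The members also varied with the share of mitochondrial UMIs. In epithelial-like cells with 10 to 15% mitochondrial UMIs (32 THC and 55 vehicle cells), Cldn4 had 536 CPM in THC and 679.7 CPM in vehicle cells, against 224 and 279.5 CPM at 5 to 10% (99 and 151 cells). Cldn23 had 307 and 233 CPM at 10 to 15% and 122 and 94.9 CPM at 5 to 10%, while Cldn2 had 49.7 and 64.9 CPM against 152 and 143 CPM. Under 5% (30 THC and 44 vehicle cells), Cldn4 had 441 and 285 CPM, Cldn23 115 and 68.4 CPM, and Cldn2 88.7 and 178 CPM. In THC cells Cldn4 thus did not rise steadily with the mitochondrial share, and Cldn2 did not fall steadily. Among the epithelial-like clusters the colonocyte-like ones had the highest median mitochondrial share, 8.43 to 8.83%. The Gm26917-led vehicle cells, at a median of 8.23%, had 43.3 CPM of Cldn23 and 199 CPM of Cldn2, unlike the colonocyte-like clusters. The part of the mitochondrial share in these levels was not tested. In the 192 THC and 208 vehicle barcodes left out for 15% or more, Cldn4 had 503 and 707 CPM (-0.49; -0.64 to -0.34), Cldn2 28.3 and 46.2 CPM, and Cldn23 308 and 247 CPM (0.32; 0.10 to 0.55). In these barcodes Cldn3 had 889 CPM in THC and 1084 CPM in vehicle (-0.29; -0.40 to -0.17), and Cldn7 had 1218 and 1403 CPM (-0.20; -0.31 to -0.10), both opposite in sign to the kept epithelial-like cells. The left-out barcodes were not sorted by cell type, and their mix of cells may differ. Epcam had 1337 CPM in THC and 1794 CPM in vehicle there, Krt8 4497 and 5607 CPM, Muc2 1363 and 918 CPM, and Actg2 467 and 165 CPM. The part of the cell mix in these ratios was not tested.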

How the data were processed

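The authors deposited raw UMI counts per gene and barcode for each library as 10x matrices (Cell Ranger 3.0.2, per the file headers; bcl2fastq and Seurat are also named in the submitters' processing notes). The build and annotation were not given in the sources used here. Of the matrices, the vehicle one lists 973 called barcodes and the THC one 737280, most of them uncalled. Kept cells (1000 UMIs, 200 genes, under 15% mitochondrial UMIs) of both libraries, 4956950 and 6533055 UMIs in all, were clustered together with scanpy 1.11.5 (2000 variable genes, 30 components, 15 neighbours, Leiden resolution 1) and named from at least 3 markers. Scrublet marked 2 doublets in each library, which were kept. UMIs were summed per class and library, with exact Poisson, binomial and conditional intervals that cover counting error only. TMM factors came from edgeR 4.0.16. The code for the ratio and its interval was tested on simulated Poisson counts. These do not hold the uneven spread of a gene over cells, so the intervals were not tested for that. The members and gene lists were chosen with earlier results of these data known. Text names all 10 members, the 3 highest, 3 lowest and 3 most abundant list genes, other claudins with at least 20 UMIs in a class, and genes among the 3 most like each member; Krt20, Aqp8, Car1 and Fabp6 were added after their values were seen. Cldn3 overlaps an antisense gene in the GENCODE annotation, and its counts were taken as deposited.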

Additional observations from a re-analysis of the deposited data

Results flagged for a closer look

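The THC over vehicle ratio of summed Cldn4 UMIs had opposite directions in different classes, with counting intervals on either side of 0. These intervals take UMIs as independent, but much of the Cldn4 sat in few cells. Single Fabp6-led vehicle cells held 167, 96 and 88 of the 700 colonocyte-like vehicle UMIs, and single Zg16-led THC cells 57 and 36 of the 193 goblet-like THC UMIs. The log2 ratio in goblet-like cells exceeded that in colonocyte-like cells by 1.08 and that in undifferentiated crypt epithelial-like cells by 1.002, and the difference between classes was not tested. Without the richest cell of each library the goblet-like ratio was 0.06 and the colonocyte-like ratio -0.44. The directions themselves turned under 2 alternatives: the goblet-like ratio was -0.29 with cells under 10% mitochondrial UMIs, and the undifferentiated-like ratio was 0.72 at a coarser clustering.

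Signal also appeared in barcodes that no comparison used. The 10 genes summed to 1984 CPM in the THC barcodes of 1 to 99 UMIs. In barcodes with 15% or more mitochondrial UMIs, which were not sorted by cell type, Cldn23 was higher in THC than in vehicle by a log2 ratio of 0.32. Only members higher in THC could be flagged there. Lower in THC, with intervals below 0, were Cldn2 (-0.71), Cldn4 (-0.49), Cldn3 (-0.29) and Cldn7 (-0.20).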

How the results depend on the processing

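No paired analysis was possible because each group is 1 library. Of 150 alternative log2 ratios of single members in the pooled epithelial-like cells, 128 stayed within the counting interval of the value reported and 22 moved outside it. In the classes 311 of 348 did, and for colonocyte-like over undifferentiated-like cells 181 of 218. Some alternatives could hardly move a pooled ratio. TMM scaling shifted the pooled log2 ratios by -0.0003, and leaving out doublets took at most 2 cells from each library. The count of members past 1.5-fold in pooled cells (1) became 5 with cells under 5% mitochondrial UMIs (30 THC and 44 vehicle cells), and 0 when each library was clustered alone or enteroendocrine-like cells were left out, the last added after seeing the data, as were the class alternatives below. In goblet-like cells the count (1) became 3 with the mean of CPM per cell and with classes from marker UMIs, 4 when libraries were clustered alone, and 0 without the richest cell. In colonocyte-like cells the count (2) became 1 under 10% mitochondrial UMIs, with the mean of CPM per cell, without the richest cell, with libraries clustered alone and with marker UMIs. In undifferentiated-like cells it (1) became 4 with the mean of CPM per cell and 0 without the richest cell. Members higher in colonocyte-like over undifferentiated-like cells (4) became 2 with the mean of CPM per cell and at Leiden resolution 0.5, and those lower (2) became 1 with marker UMIs. Ratios past 1.5-fold that turned were Cldn14 in goblet-like cells (-0.34 without the richest cell, -1.49 with marker UMIs), in colonocyte-like cells (0.027 with each library alone, 0.54 with marker UMIs), and in colonocyte-like over undifferentiated-like cells (-0.028 with the mean of CPM per cell and -2.84 with marker UMIs in vehicle, 0.11 at Leiden resolution 2 in THC), and Cldn4 in undifferentiated-like cells (0.72 at Leiden resolution 0.5). Cldn4 in goblet-like cells, not past 1.5-fold, was -0.29 under 10% mitochondrial UMIs. The cause of these shifts was not tested. With fewer than 20 cells a library, classes under 5% mitochondrial UMIs gave no value, and clustering each library alone gave no undifferentiated-like THC class. Cldn14, Tjp1 and the enteroendocrine-like and mesothelial-like cells are limited by low counts.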
